A study of Acipenser ruthenus with 35 samples.

Results

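By normalized counts, the extreme animal section A held the largest share of 200 transcripts in big oocytes of the sterlet (Acipenser ruthenus), a sturgeon. In small oocytes the normalized counts of the same transcripts were almost even over all 5 sections. Their median share in A was 40.6% in big oocytes and 21.6% in small oocytes, where equal shares give 20%. These 200 transcripts were chosen for this change out of 49027 in the tables, so the change itself is a description and no finding. For each oocyte with all 5 sections, the normalized counts of a transcript were summed over the sections and each section was expressed as a percent of that sum, its share. Normalization brings the libraries of all sections to a similar level, so each section weighs the same whatever its volume or RNA content. Equal shares therefore mean that a transcript follows the typical transcript, and not that each section holds the same amount. A transcript qualified when its sum, averaged over the oocytes of a stage, was at least 200 in both stages (13894 transcripts), when all 5 mean shares lay between 15% and 25% in small oocytes (12092 of these), and when A had the largest mean share and at least 30% in big oocytes (563 of these). The 200 with the highest A share in big oocytes were kept. Of the 12092 transcripts that were even in small oocytes, 8090 (66.9%) were within the same limits in big oocytes too, 790 met the mirrored condition with E, the extreme vegetal end, and 0, 0 and 5 met it with B, C and D.

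TOMO-Seq, in which a single oocyte is oriented, frozen, cut into consecutive sections along its axis and each section is sequenced as a library, was applied to A (extreme animal), B (animal), C (central), D (vegetal) and E (extreme vegetal). Big oocytes were advanced vitellogenic oocytes of untreated fish, 1920 to 2100 µm across (oocytes 1, 2 and 3 with 5 sections, and oocyte 11 with A and B, 17 libraries). Small oocytes were early vitellogenic oocytes of untreated fish, 1320 to 1500 µm across (oocytes 5, 6 and 8 with 5 sections, and oocyte 7 with C, D and E, 18 libraries). All big oocytes came from 1 female and all small oocytes from another, and big-oocyte libraries were made with a larger RNA input, so stage, female and input cannot be told apart. P-values therefore measure the spread between oocytes of a single fish per stage. Big-oocyte libraries held 1816470 to 11348306 counts and small-oocyte libraries 1653598 to 6817459 counts, and section A of oocyte 11 was the shallowest of the big ones. The median count of the 200 transcripts in a library was 55.5 to 793 in big and 50 to 212 in small oocytes.

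During vitellogenesis an oocyte fills with yolk taken up from the blood, and the animal-vegetal axis becomes visible in the position of the nucleus, the size of the yolk platelets and the placement of maternal RNA. The animal end later gives rise mainly to ectoderm, and in frogs and sturgeons the vegetal end carries germ plasm, the material that specifies germ cells. Maternal RNA can be placed at an end of an oocyte by transport along the cytoskeleton, by diffusion and anchoring, or by local protection from decay. The 200 transcripts have the identifiers of an assembly, without gene names, and a search of the RefSeq gene table found 0 of the 49027. They are therefore described by their profiles, and no role is given to any of them. The orientation of the sections was checked with 3 transcripts that the study names. exd2, whose protein has an exonuclease domain, and slc44a3, a choline transporter-like gene, mark the animal end. dnd1, whose protein binds RNA and is required for germ cell survival, marks the vegetal end. In oocyte 11 the log2 ratio of A to B was 4.47 for exd2, 2.98 for slc44a3 and -1.03 for dnd1. In oocytes 1, 2 and 3 it was 4.38, 3.69 and 5.01 for exd2, 2.66, 2.49 and 3.60 for slc44a3, and -0.76, -1.51 and -1.20 for dnd1. The markers thus pointed the same way in all 4 big oocytes. In small oocytes 5, 6 and 8 the A share was 92.4%, 89.3% and 89.8% for exd2 and 88.4%, 79.4% and 80.8% for slc44a3. E held the largest share of dnd1 there, at 32.7%, 30.4% and 32.6%. In small oocyte 7 the normalized counts of dnd1 were 521 in C, 636 in D and 995 in E. The study picked samples by RT-qPCR for continuous gradients of its markers, which were a condition of entry.

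The profile of the 200 transcripts in big oocytes was a peak in A followed by a slow decline. The median shares were 40.6% in A, 17.4% in B, 14.7% in C, 13.3% in D and 12.5% in E, and the corresponding values in small oocytes were 21.6%, 20.02%, 20.3%, 19.7% and 18.1%. Most of the step therefore lay between A and B. These shares come from the oocytes used for choosing, and the choice of the highest A shares in part sets a large step below A. The ratio of the A share to the B share in big oocytes had a median of 2.38 (1.39 to 7.18), and for 157 of the 200 transcripts it was at least 2. The shares declined without exception from A to E in 93 transcripts. In the remaining ones the order below A differed: B had the second largest share in 145 of the 200, E in 25, C in 16 and D in 14. By mean shares, and by any margin, E exceeded D in 58 transcripts and exceeded C in 49. Whether these transcripts had a second maximum at the vegetal pole was not tested. With all libraries scaled together, the median level of the 200 in big oocytes was 92.7 in D and 90.2 in E. With scaling to library totals it was 89.4 and 80.4, so the distance between D and E depended on the scaling. A held at least 50% of the sum in 30 transcripts.

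**Figure D1:**
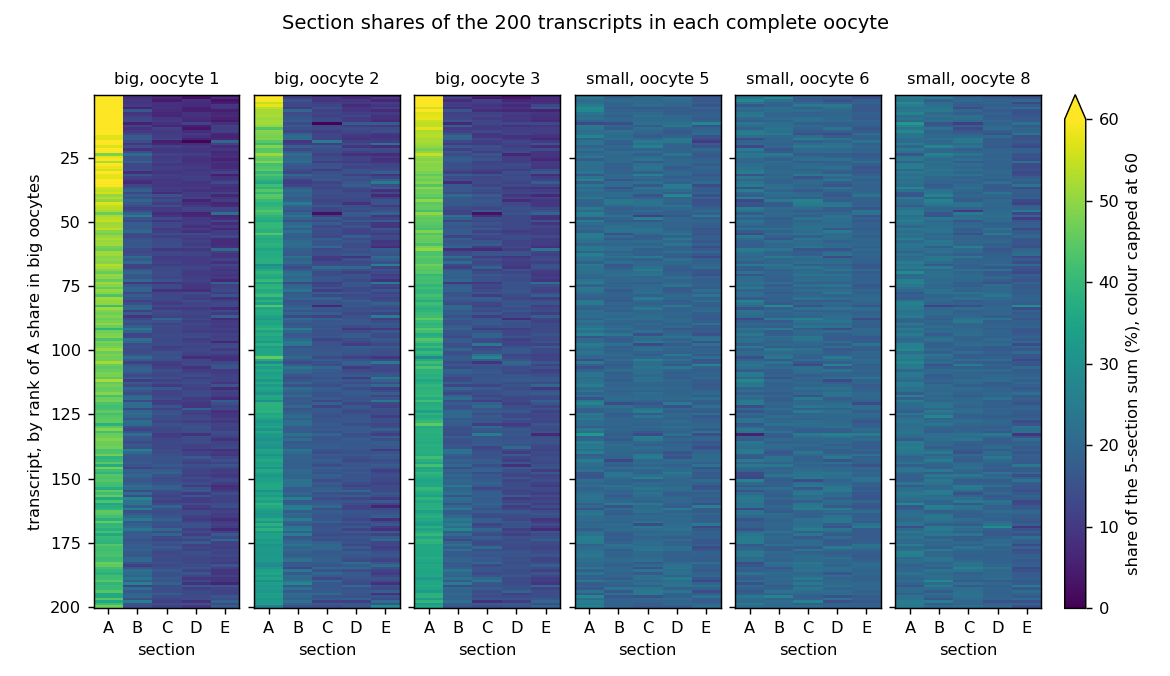
Share of each section in the 5-section sum (colour, percent) for the 200 transcripts (rows, ordered by mean A share in big oocytes) in big oocytes 1, 2 and 3 and in small oocytes 5, 6 and 8. Column A is bright in the 3 big oocytes, most of all in oocyte 1, and does not stand out in the 3 small oocytes.

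The largest shares belonged to TRINITY_GG_98046_c0_g2_i1_1 and TRINITY_GG_91056_c2_g1_i1_1. The A share of TRINITY_GG_98046_c0_g2_i1_1 was 77.4%, 67.4% and 71.9% in big oocytes 1, 2 and 3, against 22.6%, 22.9% and 27.4% in small oocytes 5, 6 and 8. In its big oocytes the mean share was 5.1% ± 2.4 in D and 4.9% ± 1.3 in E (SD, n = 3). The A share of TRINITY_GG_91056_c2_g1_i1_1 was 75.9%, 62.4% and 72.6% in big oocytes 1, 2 and 3, against 23.98%, 23.3% and 24.1% in small oocytes 5, 6 and 8. For both transcripts every big oocyte was far above every small one. At the other end of the list, TRINITY_DN53608_c0_g1_i5_1 (36.10%) and TRINITY_DN50623_c0_g1_i2_1 (36.06%) were the last inside the limit, and TRINITY_DN51741_c0_g1_i3_1 (36.01%) and TRINITY_DN50777_c0_g1_i1_1 (35.96%) the first outside it. The limit cut a continuous range that went down to 30.02% at the last rank, and the SDs of the A share of these last 4 transcripts were 4.6, 10.7, 7.9 and 5.3 percentage points (n = 3). TRINITY_DN50623_c0_g1_i2_1 was the least even of them between oocytes, with 47.0%, 25.7% and 35.6% in A of big oocytes 1, 2 and 3.

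The height of the peak differed between the big oocytes. The median A share of the 200 transcripts was 47.1% in oocyte 1 (2100 µm), 36.2% in oocyte 2 (1920 µm) and 39.9% in oocyte 3 (2010 µm). The A share was highest in oocyte 1 for 181 transcripts, in oocyte 3 for 16 and in oocyte 2 for 3, and 164 followed the order 1, 3, 2. Over all 13894 transcripts with a total of at least 200 the median A share was 19.6%, 19.9% and 19.5% in oocytes 1, 2 and 3. The markers shared this order only in part. The A share of exd2 was 92.4%, 90.3% and 95.1% and that of slc44a3 80.0%, 78.2% and 85.2% in oocytes 1, 2 and 3. Both were lowest in oocyte 2, like most of the 200, but highest in oocyte 3. With 3 oocytes, the diameter cannot be told apart from other differences between them. A was the largest section for all 200 transcripts in oocytes 1 and 3 and for all but 1 in oocyte 2. The SD of the A share over the big oocytes had a median of 6.00 percentage points, against 1.99 percentage points over the small oocytes. The oocytes ordered the transcripts similarly, with Pearson's r of the A share of 0.75 for oocytes 1 and 2, 0.84 for oocytes 1 and 3 and 0.84 for oocytes 2 and 3, across the 200 transcripts, which are not independent replicates and were chosen on these values.

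**Figure D2:**
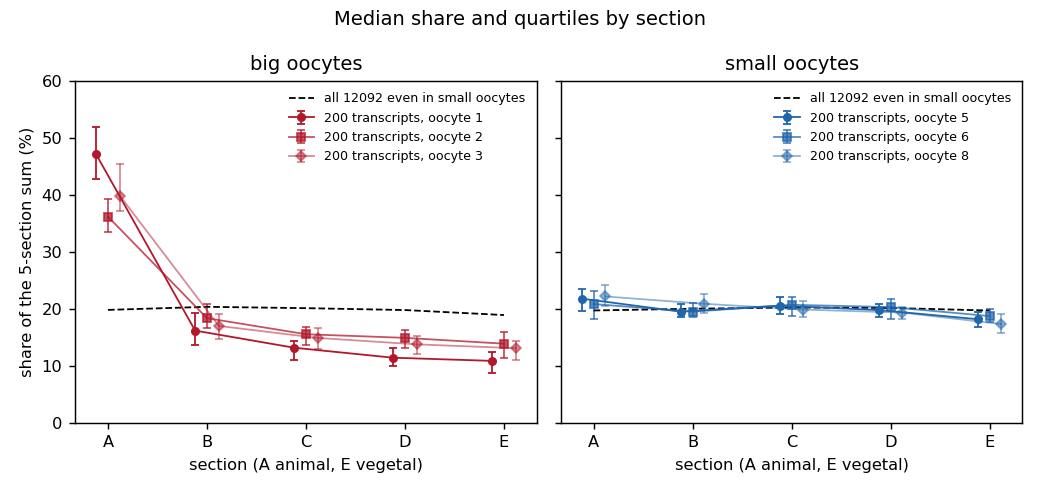
Median share of the 200 transcripts by section (percent of the 5-section sum, with lower and upper quartile) in each complete big and small oocyte, beside the median of all 12092 transcripts that were even in small oocytes (dashed). The medians in A were 47.1%, 36.2% and 39.9% in big oocytes 1, 2 and 3, while all medians of small oocytes lay near 20%.

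Section A of oocyte 11 and its section B were not used to choose the transcripts and gave an independent measurement of the step between A and B. In oocyte 11 the scaled level (count divided by the size factor of the library, plus a pseudocount of 1) was higher in A than in B for 198 of the 200 transcripts, with a median log2 ratio of 1.21 (quartiles 0.90 and 1.46). The same ratio had medians of 1.55, 0.95 and 1.28 in oocytes 1, 2 and 3, which were used for choosing. Over the 13894 transcripts with a total of at least 200, the median ratio in oocyte 11 was -0.02 and 47.5% were higher in A. A was at least 2 times B for 134 of the 200 transcripts, against 4.18% of the 13894. For 130 of the 200 the ratio of oocyte 11 lay within the range of oocytes 1, 2 and 3, for 20 above it and for 50 below it.

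The quasi-likelihood test of edgeR, with the spread taken from oocytes 1, 2 and 3, called A higher than B in oocyte 11 for 128 of the 200 transcripts (adjusted p under 0.1), against 2.85% of the 32348 transcripts tested and 5.17% of those with a total of at least 200. All 200 passed the filter on low values. It called 0 of the 200 lower in A, against 0.767% of all tested, and DESeq2 called 0, against 0.566%, so lower calls were rare among all transcripts. At an unadjusted p under 0.05, 0 were lower, against 5.74% of all tested, and 177 were higher, against 7.99%. The fitted log2 ratio was above 0 in 70 of the 72 transcripts without a call, with a median of 0.85, and their median count in A of oocyte 11 was 60 against 121 for the called ones. The test rests on 1 oocyte, which is assumed to vary like the others. The count was 54 without oocyte 3, 156 without oocyte 1 and 139 without oocyte 2, against 1.31%, 3.97% and 3.02% of all tested. Scaling to the library totals moved the median ratio of the 13894 transcripts to -0.21 and that of the 200 to 1.03. With this scaling 122 were called, against 2.37% of all tested.

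**Figure D3:**
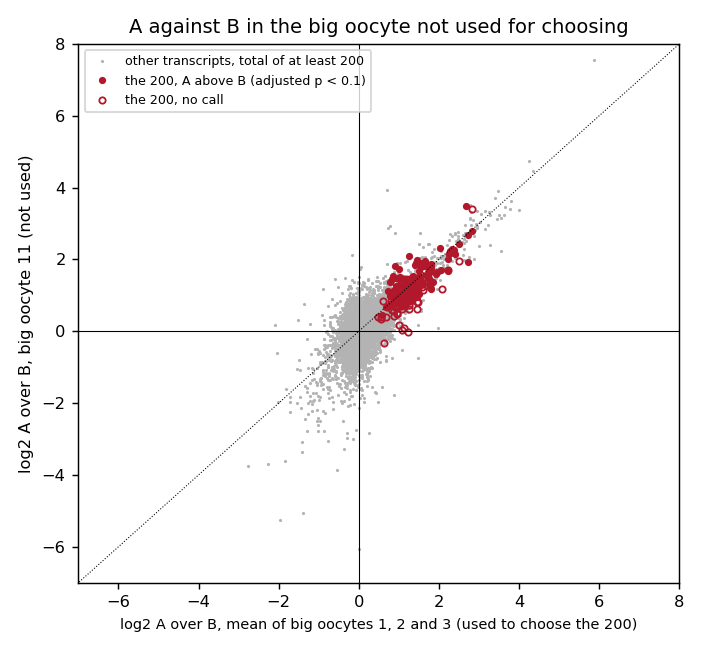
Log2 ratio of the scaled level in A to that in B for big oocyte 11, which was not used for choosing (vertical axis), against the mean of big oocytes 1, 2 and 3, which were (horizontal axis), for the 200 transcripts (red, filled where edgeR called A higher) and the other transcripts with a total of at least 200 (grey). Of the 200, 198 lie above 0 on the vertical axis, near the dotted line of equal values.

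The extremes of oocyte 11 were as follows. TRINITY_DN50632_c0_g1_i3_1 had a scaled level of 303.2 in A and 25.9 in B of oocyte 11, from 98 and 21 counts, and the fitted log2 ratio was 3.54 ± 0.63 (SE, edgeR adjusted p = 0.015). In oocytes 1, 2 and 3 its log2 ratio was 2.95, 1.94 and 3.10, so oocyte 11 lay above the other 3. TRINITY_GG_5752_c1_g1_i1_1 had 167.1 in A and 14.8 in B, from 54 and 12 counts. Its fitted log2 ratio of 3.48 ± 1.33 did not pass the test (SE, edgeR adjusted p = 0.29). Without oocyte 2 the adjusted p of edgeR was 3.44e-04, the lowest of its alternatives, and the highest was 0.51. Its A share differed between small oocytes as well, with 13.5%, 23.1% and 32.4% in oocytes 5, 6 and 8. The smallest ratios were those of TRINITY_DN47165_c0_g1_i1_1, at -0.34 ± 0.39 from 17 counts in A and 54 in B, and TRINITY_GG_20312_c0_g1_i1_1, at -0.02 ± 0.50 from 15 and 38 counts (SE, edgeR adjusted p = 0.76 and 1). In oocytes 1, 2 and 3 the log2 ratio of TRINITY_DN47165_c0_g1_i1_1 was 0.49, 0.55 and 0.83, and that of TRINITY_GG_20312_c0_g1_i1_1 was 1.68, 0.67 and 1.33. These were the 2 transcripts of the list that were not higher in A of oocyte 11, each on few counts.

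Evenness in small oocytes held for the mean of 3 oocytes and less strictly for single ones. All 5 shares lay between 15% and 25% for 149 transcripts in oocyte 5, for 164 in oocyte 6 and for 130 in oocyte 8, and in each of the 3 for 90. These counts are given without those of all 12092, so whether the 200 were less even in single oocytes than the 12092 was not tested. The mean shares of 48 transcripts came within 1 percentage point of a limit, 28 of them at the upper limit in A. The small-oocyte profile leaned slightly towards the animal end. A exceeded E in 172 of the 200 transcripts, against 49.6% of all 12092 that were even in small oocytes, and A was the largest section in 108, against 26.9%. By oocyte, A exceeded E in 161, 134 and 178 of the 200 in oocytes 5, 6 and 8, against 51.3%, 46.8% and 52.1% of the 12092. The lean was small, with a median A share of 21.6% against 19.7% for the 12092, and a median E share of 18.1% against 19.7%. It was much alike in the upper and the lower part of the ranking, with a median small A share of 21.9% for the 100 highest ranks and 21.3% for the 100 lowest. These values come from the oocytes that the rule used and are given without a test.

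Oocyte 7, which was not used for choosing, covered C, D and E. Of the sum of these 3 sections, the 200 transcripts had medians of 34.8% in C, 33.9% in D and 31.1% in E, against 33.7%, 32.9% and 33.1% for the 13894. C exceeded E in 134 of the 200, against 54.3% of the 13894, and in 152, 144 and 150 in small oocytes 5, 6 and 8. The counts of oocytes 5, 6 and 8, which were used for choosing, are a description and are given without the share of the 13894. In oocyte 7 the medians of the 200 transcripts thus leaned away from E, in the direction of the oocytes used for choosing. This is 1 oocyte, and the 200 transcripts are not replicates of it. Its section E was the shallowest of all 35 libraries, with 1653598 counts and a median count of 50 for the 200. The test of edgeR called 1 of the 200 transcripts uneven over C, D and E of oocyte 7, against 2.3% of the 30340 tested. At an unadjusted p under 0.05, 18 of the 200 were uneven, against 8.98% of all tested. This was close to the background, and the call rests on 1 oocyte. The count was 6 with scaling to library totals, 4 without oocyte 6 and 0 without oocyte 5. The shares of all tested were 2.11%, 2.7% and 2.17%.

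Within each stage, the F test of the section terms used the same oocytes as the rule and is given only as a description. In big oocytes it called 200 of the 200 differentially localized. Of the 32348 transcripts tested 54.1% were called, and 73.1% of those with a total of at least 200. In small oocytes it called 63 of the 200, where 15.1% of the 30340 tested and 21.5% of those with a total of at least 200 were called. Without oocyte 5 the count in small oocytes was 33, against 10.6% of all tested and 15.2% of those with a total of at least 200, which is near the share of comparable transcripts. Without oocyte 6, 8 or 7 it was 53, 43 and 54. The shares of those with a total of at least 200 were then 15.7%, 18.2% and 19%, so the approach to the background was closest without oocyte 5.

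Whether A was higher or the other sections were lower in big oocytes was read from the scaled level in each section, with all 35 libraries scaled together. Both held. In A the median log2 difference, big minus small, was 0.77 (quartiles 0.56 and 1.04), and 192 of the 200 transcripts were higher in big oocytes. In B it was -0.37, in C -0.66, in D -0.75 and in E -0.72, with 181, 197, 196 and 195 transcripts lower in big oocytes. Over all 13894 transcripts the medians were 0.02, 0.02, 0.02, 0.02 and -0.01 from A to E. A was higher and B, C, D and E were all lower in 169 of the 200 transcripts, 8 were lower in all 5 sections and 2 were higher in all 5. On the log2 scale the mean fall over B to E exceeded the change in A in 81. The 4 big libraries of A had medians between 0.49 and 1.17 relative to the mean of small oocytes. The 3 big libraries of E had medians between -0.79 and -0.69, so the stage difference varied more between oocytes in A than in E. These differences follow in part from the choice of the transcripts and have no test. Scaled levels measure composition, so whether transcript was gained in A or lost from B to E was not tested.

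**Figure D4:**
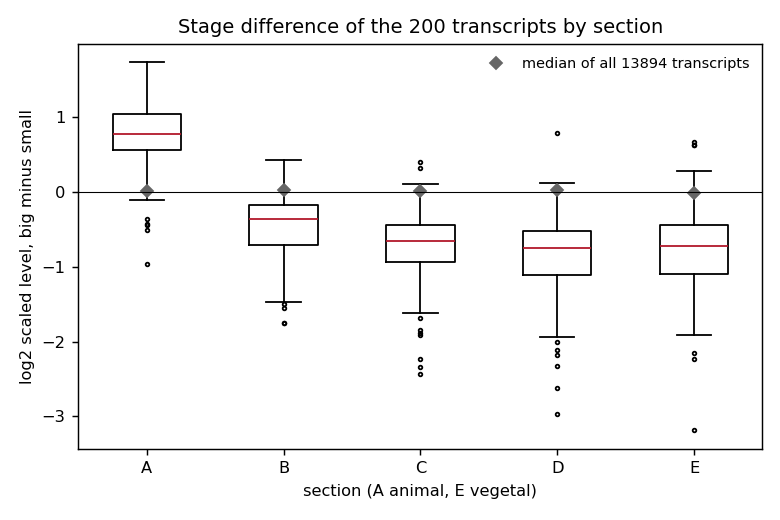
Log2 difference of the mean scaled level, big minus small oocytes, of the 200 transcripts in each section (boxes: median and quartiles, whiskers to the last value within 1.5 interquartile ranges, points beyond), beside the median of all 13894 transcripts with a total of at least 200 (diamonds). The median of the 200 is 0.77 in A and between -0.37 and -0.75 in B to E.

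As a share of all counts, the 200 transcripts together took 2.03% to 3.12% of the libraries of A in big oocytes, against 1.38% to 1.51% in small oocytes. In E they took 0.61% to 0.64% in big oocytes, against 1.15% to 1.29% in small oocytes. Sections B, C and D of big oocytes lay between, at 1.02% to 1.12%, 0.84% to 0.88% and 0.72% to 0.77%, against 1.35% to 1.46%, 1.39% to 1.46% and 1.32% to 1.44% in small oocytes. The ranges of big and small oocytes did not overlap in any section, which the choice of the transcripts largely sets.

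The total of a transcript was its scaled level, with all libraries scaled together, summed over the 5 sections of an oocyte. In this sum each section weighs the same whatever its volume. The rule used sums of the same 6 oocytes, scaled within each stage, as a minimum and as the denominator of the shares. It did not use their difference between stages. The calls on the totals are therefore given as a description beside those of all transcripts, and not as independent evidence. The 200 transcripts had lower totals more often than higher ones. At an adjusted p under 0.1, edgeR called 103 lower in big oocytes, against 28.6% of the 33219 transcripts tested, and 10 higher, against 28.9%. Of those with a total of at least 200, 31.5% were called lower and 32.5% higher. All 200 were tested. The median log2 difference, big minus small, was -0.21 (quartiles -0.42 and -0.01), against 0.01 for all 13894 transcripts with a total of at least 200. Of the 103, 91 (88.3%) had all 3 big oocytes below all 3 small ones, against 93.4% of all transcripts called lower, and all 10 higher ones had no overlap, against 93.0% of all called higher. Absence of overlap was therefore the rule among called transcripts in general. The falls were mostly modest, with a median of -0.41 among those called, and 27 of the 200 fell by more than 1.5 times, against 6.41% of the 13894. By oocyte, the median log2 total relative to the mean of small oocytes was -0.05 in big oocyte 1, -0.35 in oocyte 2 and -0.22 in oocyte 3.

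The fall was smaller when the sections were weighed by their sequencing depth. With the unscaled counts of the sections summed, so that a deeply sequenced section counts more, 36 of the 200 were lower, against 27.6% of the transcripts with a total of at least 200, and 13 higher, against 28.6% of them, and the median was -0.07. The 36 lie below the background share, so with this weighing lower totals were not in excess of that share. The depth of A differed, however. Its size factors were 1.89 in oocyte 1, 0.69 in oocyte 2 and 2.05 in oocyte 3. For A of small oocytes 5, 6 and 8 they were 1.06, 0.73 and 0.64. Depth in A alone can thus raise unscaled totals of these transcripts in oocytes 1 and 3. These sums therefore cannot decide whether the fall depends on anything but depth. Lower totals still outnumbered higher ones among the 200, and the median of the 13894 was 0.02. Without oocyte 2, 85 were lower and 23 higher, against 25.6% and 26.1% of all tested. Without oocyte 1, 129 were lower and 9 higher, against 27.7% and 28.5%. The 200 transcripts with the highest E share among those that met the mirrored condition had 19 lower and 138 higher scaled totals, with a median of 0.37. Of the transcripts with a total of at least 200, 31.5% were lower and 32.5% higher. With unscaled counts summed, this mirrored list had 18 lower and 82 higher totals, against 27.6% and 28.6%. The size factors of E were 0.73 in oocyte 1, 0.56 in oocyte 2 and 1.92 in oocyte 3. The part of depth in this shift was not tested. The totals of the animal markers were lower in big oocytes too, with log2 differences of -1.13 for exd2 and -0.74 for slc44a3. That of the vegetal marker dnd1 was higher, at 1.12 (edgeR adjusted p = 0.043, 0.016 and 0.0010). The fall of the total was not tied to the rank in the list: 50 of the 100 highest ranks and 53 of the 100 lowest were lower, while 1 and 9 were higher. Fewer transcripts per oocyte and a smaller share of a growing RNA pool cannot be told apart in these scaled values.

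**Figure D5:**
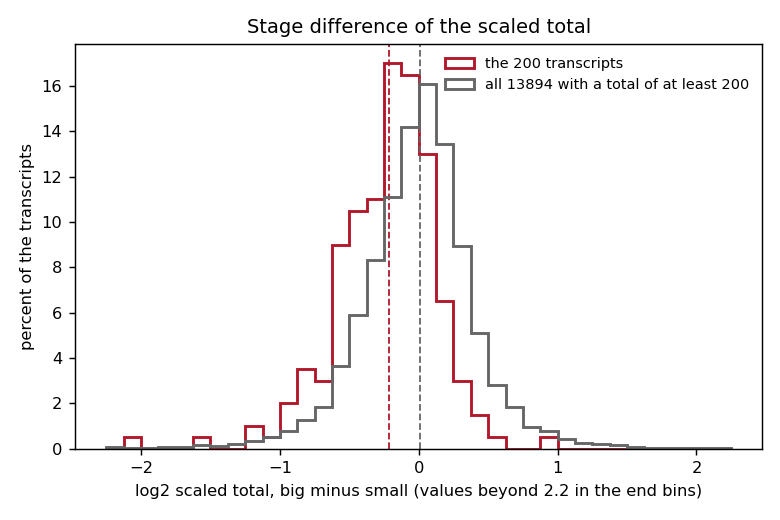
Distribution of the log2 difference of the scaled total, big minus small oocytes, for the 200 transcripts (red, percent of the 200) and for all 13894 transcripts with a total of at least 200 (grey, percent of the 13894), with the medians as dashed lines. The median of the 200 is -0.21 and that of all is 0.01.

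The strongest fall was that of TRINITY_DN52003_c0_g1_i1_1. Its total was 605, 483 and 498 in big oocytes 1, 2 and 3, against 2268, 2336 and 2117 in small oocytes 5, 6 and 8, a log2 difference of -2.08 ± 0.08 (SE, edgeR adjusted p = 9.05e-09). All big oocytes were far below all small ones. The mean shares in big oocytes declined steadily, at 37.1%, 25.3%, 18.5%, 11.6% and 7.4% from A to E. In small oocytes the mean shares were lowest at both ends, at 17.7%, 21.7%, 22.5%, 21.6% and 16.5%. This did not hold in each small oocyte: A had 17.6%, 14.9% and 20.4% in oocytes 5, 6 and 8, and D had 18.7% in oocyte 8. The total of TRINITY_GG_67756_c2_g1_i1_1 was 244, 217 and 229 in big oocytes 1, 2 and 3, against 655, 672 and 710 in small oocytes 5, 6 and 8 (log2 difference -1.56 ± 0.08, SE, edgeR adjusted p = 2.48e-08).

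Rises were fewer and smaller. The total of TRINITY_GG_22325_c0_g1_i1_1 was 1163, 835 and 775 in big oocytes 1, 2 and 3, against 499.5, 458 and 523 in small oocytes 5, 6 and 8 (log2 difference 0.91 ± 0.16, SE, edgeR adjusted p = 0.0028). Oocyte 1 was the highest by a wide margin, and its A share was 52.4% there against 31.4% and 35.9% in oocytes 2 and 3. The total of TRINITY_DN50227_c1_g1_i5_1 was 975, 870.1 and 844 in big oocytes 1, 2 and 3, against 599.8, 660.1 and 640.0 in small oocytes 5, 6 and 8 (log2 difference 0.50 ± 0.07, SE, edgeR adjusted p = 1.09e-04). This transcript had a second, lower maximum at the vegetal end of big oocytes, with 19.8% ± 1.5 in E against 13.6% ± 1.0 in D (SD, n = 3).

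The 2 most abundant transcripts of the list, whose counting error was low, differed in shape. The list as a whole was not sorted into shapes. TRINITY_DN55139_c0_g1_i1_1 had totals of 17052, 14523 and 15168 in big oocytes 1, 2 and 3, against 18324, 17440.5 and 17669.8 in small oocytes 5, 6 and 8. Its mean shares in big oocytes were 39.1%, 16.7%, 15.6%, 15.5% and 13.1% from A to E, against 23.1%, 19.6%, 19.2%, 19.4% and 18.7% in small oocytes. A thus stood apart in big oocytes, and the shares declined from 16.7% to 13.1% between B and E. In small oocytes, where A was also the largest, the F test of the section terms called it too (edgeR adjusted p = 0.0016). The log2 difference of its total was -0.19 ± 0.06 (SE, edgeR adjusted p = 0.012) and lost its call when unscaled counts were summed (edgeR adjusted p = 0.66, against 2.51e-04 to 0.058 under the other alternatives). In oocyte 11 it had 2119 counts in A and 2410 in B, and a fitted log2 ratio of 1.14 ± 0.18 after scaling (SE, edgeR adjusted p = 0.0042).

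TRINITY_GG_63481_c0_g1_i1_1 had a graded profile instead. Its mean shares in big oocytes were 37.2%, 24.7%, 17.7%, 12.04% and 8.4% from A to E, with SDs of 1.1, 0.5, 1.0, 1.5 and 0.5 percentage points, against 18.9%, 20.8%, 21.3%, 20.9% and 18.1% in small oocytes. The totals were 5588, 4727 and 5149 in big oocytes 1, 2 and 3, against 10568, 11546 and 10595 in small oocytes 5, 6 and 8, with no overlap (log2 difference -1.08 ± 0.06, SE, edgeR adjusted p = 1.44e-07). In oocyte 11 the fitted log2 ratio of A to B was 0.46 ± 0.14 (SE, edgeR adjusted p = 0.077), close to the 0.63, 0.56 and 0.59 of oocytes 1, 2 and 3.

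By the identifiers of the assembly, the list was not a set of isoforms of a few genes. Identifiers cannot match a gene between de novo and genome-guided transcripts. Whether transcripts with different identifiers come from the same gene was not tested. A single gene-level identifier of the assembly gave 2 of the 200 transcripts and every other one gave 1. The 200 carried 197 component identifiers, and the largest component gave 3 of them. Another isoform of the same gene-level identifier with a total of at least 200 existed for 8 of the 200. These 8 isoforms had A shares in big oocytes between 15.96% and 45.1% (median 30.7%), A was the largest section in 6, 7 were even in small oocytes, and 2 were members of the list themselves. The counting program divides reads that isoforms share by estimate, so the shares of such pairs are not independent. Of the 200 transcripts, 67 (33.5%) were assembled with a genome as guide, against 22.2% of the 13894, and 133 de novo. The share of genome-guided transcripts was 31.0% in the mirrored list with E and 24.2% among the 363 transcripts that qualified below the limit. In abundance the 200 were close to the others, with a median normalized sum of 799 (big oocytes) and 619 (small oocytes), against 914 (big) and 669 (small) for the 13894. These sums were scaled within each stage, so the values of big and small oocytes are not on the same scale.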

How the data were processed

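Total RNA of each section was depleted of ribosomal RNA and sequenced as paired reads. The authors trimmed reads with Trimmomatic and removed mitochondrial and remaining ribosomal RNA reads with SortMeRNA. They assigned the rest with kallisto 0.43.1 to a transcriptome that the paper calls de novo. By their identifiers, 17934 of its 49027 transcripts here were assembled with a genome as guide. The deposited estimated counts per transcript are whole numbers (100% of values). The authors also deposited, per stage, a normalized signal (counts divided by DESeq2 size factors), from which whole counts were recovered for 100% of values within a tolerance of 1e-06; it gave the shares and ratios. Count tests used edgeR 4.0.16 in R 4.3.3 (quasi-likelihood, robust, median-of-ratios scaling) on transcripts with a scaled total over 20, with Benjamini-Hochberg adjustment over all tested and a threshold of 0.1, as in the study. Within a stage the oocyte was a block, because libraries of 1 oocyte share a cell: their deviations from the group means correlated at 0.179 (big oocytes) and 0.122 (small oocytes). For pairs from another oocyte and section the values were -0.0653 (big) and -0.0415 (small). Totals were tested over 3 big and 3 small complete oocytes, with all libraries scaled together; levels are on log2 with a pseudocount of 1. Scaling measures composition, not absolute RNA. Each test was also run on simulated counts in which some transcripts were changed by a known fold. These counts had no oocyte effect and a single dispersion, so they do not check the tests under the correlation given above. Alternatives were TMM, library totals, other filters, DESeq2 1.42.0, no block, unscaled sums, other limits for choosing transcripts and each oocyte left out.

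The transcripts, lists and tests were chosen with earlier results of these data known. Named were, by rule, the 2 with the highest A share, the 2 largest rises and falls of the total among called transcripts without overlap, the 2 largest and smallest ratios in oocyte 11, the 2 most abundant, the 4 at the limit and the 3 markers. Contig sequences were not used here. The count tables give no direct measure of RNA quality, and markers of follicle cells could not be matched to identifiers, so their part in the results was not tested.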

Additional observations from a re-analysis of the deposited data

Results flagged for a closer look

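Single libraries that stood apart were looked for in the combinations of stage and section with 4 libraries, over the summed share of the 200 transcripts and the scaled level of the named ones. Of 75 sets of 4 values, 5 had a value whose gap to the nearest other was larger, relative to the range of the set, than Dixon's critical value at 95%; chance gives about 1 in 20. The 200 transcripts took 1.12% of the counts in section B of big oocyte 1, above the other 3 big oocytes. TRINITY_GG_91056_c2_g1_i1_1 had a scaled level of 24.9 in section B of big oocyte 2, below the other 3. TRINITY_GG_22325_c0_g1_i1_1, the largest rise of the total, had a scaled level of 710.2 in section A of big oocyte 1, above the other 3, and 75.01 in section C of small oocyte 6, below the other 3. TRINITY_GG_20312_c0_g1_i1_1 had 24.4 in section C of small oocyte 5, below the other 3.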

How the results depend on the processing

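Leaving out 1 oocyte in turn gave 54 to 156 transcripts higher in A of oocyte 11, against 1.31% to 3.97% of all tested. It gave 0 to 4 uneven in oocyte 7, against 2.17% to 2.7%, and 33 to 54 localized in small oocytes, against 10.6% to 13.3%. Higher totals numbered 9 to 23, against 25.7% to 28.5%, and lower ones 85 to 129, against 25.5% to 27.7%. The count in oocyte 7 was 2 with TMM, 6 with library totals, 2 with a filter of at least 1 count and 0 with no replicate block. The shares of all tested were 2.14%, 2.11%, 1.67% and 1.87%. The count of lower totals was 36 with unscaled sums, against 26% of all tested. Without the replicate block 120 transcripts were higher in A of oocyte 11, against 2.36% of all tested. In small oocytes 64 were localized, against 14.9%. Only the count in oocyte 7 moved by over 1.5 times through the block. With library totals the median stage difference was -0.84 in D and -0.87 in E, and that of all 13894 transcripts in E was -0.16. A minimum total of 400 kept 131 of the 200 transcripts, limits of 16 and 24 kept 152, and the other choices kept 165 to 187. The cause of these shifts was not tested. The 72 transcripts without a call in oocyte 11 had both a lower median count in A and a lower median ratio than the called ones, and the part of depth was not tested.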
